A study of Mus musculus with 4 samples.

Results

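EN8 is one of 13 subtypes that the depositors distinguished among the excitatory neurons of the developing mouse superior colliculus. Its members are the nuclei whose deposited subtype label is EN8, with no further selection. There were 230 such nuclei among 4093 excitatory neurons, 7552 neurons and 9724 nuclei in all. The superior colliculus is a layered midbrain structure that receives retinal and other sensory input and sends commands for orienting movements. Its excitatory neurons load glutamate into synaptic vesicles with the transporter encoded by Slc17a6 (VGLUT2), while the inhibitory neurons make GABA with the enzymes encoded by Gad1 and Gad2. Developing midbrain neurons are set apart by transcription factors, many of which stay on after the neurons have been born.

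Single-nucleus RNA was profiled with 10X Genomics 3′ v3 chemistry from C57BL/6J mice at embryonic day 19 (E19) and postnatal days 4, 8 and 21 (P4, P8 and P21), with no treatment or genotype named. Each stage is 1 library made from the dissected tissue of several animals together, whose number and sex are not given, so a difference between stages is also a difference between libraries and has no replicate check. No p-value is given for any comparison, and the 95% intervals below cover counting error only. Values are counts of unique molecular identifiers (UMIs), summed over the nuclei of a group and scaled to counts per 1000000 UMIs (CPM).

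From E19 to P21 the libraries contributed 49, 68, 67 and 46 EN8 nuclei. At E19 these were 3.66% of the excitatory nuclei (exact Clopper-Pearson interval 2.72 to 4.81%) and at P4 5.64% (4.40 to 7.09%). The share was 7.73% (6.04 to 9.71%) in the P8 library and 6.74% (4.98 to 8.89%) in the P21 library. The interval at E19 lies below those at P8 and P21 and overlaps that at P4. As a share of all neurons the values were 2.20, 3.50, 3.43 and 3.23% in the same order. Other excitatory subtypes set the denominator: EN1 alone made up 38.4% of excitatory nuclei at E19 and 15.1% at P8.

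**Figure D1:**
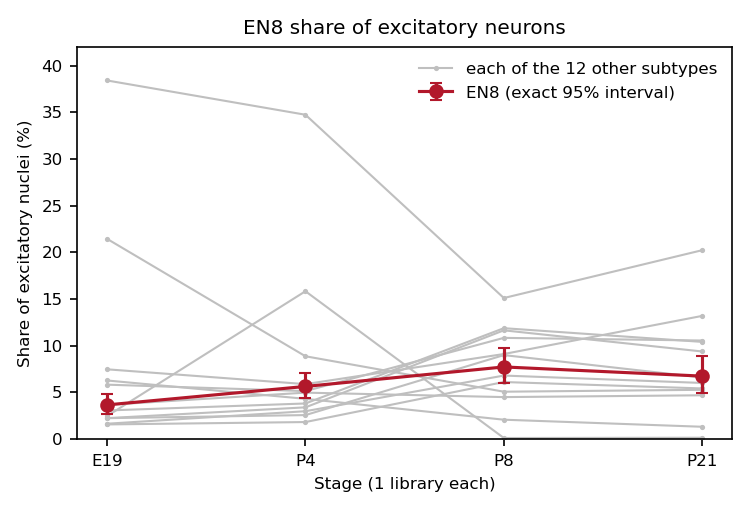
The plot of subtype shares by stage gives the percent of excitatory nuclei (y axis) in each of the 4 libraries (x axis) for EN8 in red with exact 95% intervals and for each of the 12 other excitatory subtypes in grey. EN8 lay between 3.66 and 7.73% at every stage, while EN1, the highest grey line at E19, went from 38.4% at E19 to 15.1% at P8.

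EN8 nuclei were deep. From E19 to P21 their median UMI counts were 9900, 15498.5, 19649 and 24820, against 8026, 11596.5, 13920 and 19394.5 in the other excitatory nuclei. The summed EN8 depths were 528302, 1084108, 1301094 and 1340642 UMIs in the same order, which makes E19 the least precise stage. Median mitochondrial percentages were low in EN8 (0.119 to 0.430% of UMIs). Between libraries, 9 barcodes recurred, and 1 of the 18 nuclei that carry them is in EN8. To compare shares of nuclei with a UMI across depths, each nucleus was also thinned at random to 2300 UMIs, a depth every nucleus reached.

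The excitatory label was checked against transmitter genes. Slc17a6 was present at 179.8, 167.9, 134.5 and 139.5 CPM in EN8, from E19 to P21, below the 290.9, 246.9, 186.9 and 179.6 CPM of the other excitatory subtypes together. Among the excitatory subtypes with at least 20 nuclei EN8 had the lowest Slc17a6 level at each of the 4 stages. At least 1 Slc17a6 UMI was found in 79.6 to 93.5% of EN8 nuclei, against 11.2 to 24.8% of inhibitory nuclei. After thinning these shares were 23.5 to 40.8% and 2.16 to 10.1%, beside 32.7 to 47.9% of the other excitatory nuclei. A Gad1, Gad2 or Slc32a1 UMI was found in 24.5% of EN8 nuclei at E19 and in 25%, 41.8% and 41.3% at the later stages. In thinned nuclei these became 12.2, 4.41, 5.97 and 2.17%, against 7.08 to 10.5% of the other excitatory nuclei and 75.8 to 84.4% of inhibitory nuclei.

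Of the depositors' other 3 labels 2 were nearly uniform within EN8, and the remaining one was not. Of the 230 nuclei, 218 belonged to 1 unsupervised cluster, which holds 240 nuclei in total. One reference-based label placed 225 of the 230 (97.8%) in 1 reference class, and EN8 made up 77.3% of the 291 nuclei given that class. The other reference-based label divided EN8 mainly between the classes ESC1, with 136 nuclei (59.1%), and ESC2, with 86 (37.4%), and gave ISC5 to 7. ESC1 was given to 85.7, 63.2, 55.2 and 30.4% of EN8 nuclei from E19 to P21, and ESC2 to 6.12, 33.8, 41.8 and 69.6%. These classes are wide, and EN8 made up 4.32% of all nuclei labelled ESC1 and 3.73% of those labelled ESC2. Markers of other cells stayed near the level of the other excitatory subtypes. The astrocyte list (8 genes, all detected) summed to 107 to 178 CPM in EN8 and 162 to 184 CPM in the others, and the microglia list (7 genes) to 36.0 to 49.98 against 32.9 to 46.7 CPM. The oligodendrocyte list (8 genes) was at 53.0 to 64.6 CPM before P21 and at 233.5 CPM at P21, beside 60.7 to 100.4 and 306.6 CPM in the others. The cholinergic markers Chat and Slc18a3, the cerebellar granule cell markers Gabra6, Neurod1 and Cbln3, and the cortical markers Tbr1, Neurod2, Fezf2 and Emx1 had no UMI in EN8 at any stage. At P21, where EN8 was deepest, a count of 0 allows up to 2.24 CPM (3 UMIs).

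EN8 was then set against the sum of all other excitatory subtypes within each library. Since the subtypes are clusters of these same counts, the contrast describes EN8 and does not test it. A gene was counted as higher or lower when its log2 ratio, with 5 CPM added to both sides, passed 2-fold in every stage. Of 3936 genes with a mean of 50 CPM or more on the higher side, 26 (0.661%) were higher in EN8 and 53 (1.35%) were lower. The 20 with the highest smallest ratio over the stages are called leading genes here. All 20 had intervals apart from those of the other subtypes at each stage, and for 14 of them EN8 was the highest excitatory subtype at all 4 stages. The last of the 20 is Pcsk6, with a smallest log2 ratio of 1.13, and the first outside is Rgs6, a regulator of G-protein signalling, with 1.10.

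Gm43824, a long noncoding RNA, lies at chr3:128610987-128887161 on the plus strand (GRCm38, GENCODE M21). EN8 held 32, 80, 178 and 92 Gm43824 UMIs from E19 to P21. These were 60.6, 73.8, 136.8 and 68.6 CPM, against 2.36, 1.59, 1.43 and 2.34 CPM in the other excitatory subtypes. EN8 was 25.6-fold higher at E19 (exact interval 14.8 to 44.8), 46.3-fold at P4 (28.6 to 78.0), 95.7-fold at P8 (58.1 to 168) and 29.4-fold at P21 (19.4 to 45.7). Over all 9724 nuclei EN8 held 70.9% of the Gm43824 UMIs, with 2.37% of the nuclei and 4.19% of the UMIs. A Gm43824 UMI was found in a minority of EN8 nuclei, in 18.4% of them at E19 and in 39.1 to 46.3% later. The same share was 1.47 to 2.52% in the other excitatory nuclei. In thinned nuclei it was 14.3 to 22.1% in EN8, against 0 to 0.858% of astrocytes. Within EN8 the level at P8 (interval 117 to 158 CPM) lay above the intervals of the other 3 stages, which overlap one another.

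Pmfbp1, a gene best known for its role in sperm structure, was at 128.7, 140.2, 123.7 and 77.6 CPM in EN8 and at 7.72, 5.79, 5.30 and 8.14 CPM in the others. EN8 held 49.8% of its UMIs, and EN2 was the next highest excitatory subtype at P21, with 33.8 CPM. Foxp4, a forkhead transcription factor, was at 236.6, 176.2, 225.2 and 111.9 CPM, which was 9.64-fold, 7.18-fold, 14.2-fold and 8.73-fold the level of the others. Gli3, the zinc-finger transcription factor that acts mainly as a repressor in hedgehog signalling, was at 333.1, 341.3, 471.9 and 258.1 CPM in EN8 and at 56.4, 30.6, 41.0 and 24.4 CPM in the others. Its ratio was 5.90-fold at E19 and 10.6-fold to 11.5-fold later, with the interval at E19 (4.96 to 6.99) below the later ones.

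Foxp4 and Gli3 were also high in cells outside the excitatory class. Gli3 had a median over stages of 337 CPM in EN8, 395 CPM in the inhibitory subtype IN10, 276 CPM in IN6, 299 CPM in epithelial cells and 247 CPM in protoplasmic astrocytes. Foxp4 had a median of 201 CPM in EN8, 370 CPM in IN10 and 230 CPM in epithelial cells. Ror2, a receptor for Wnt5a, was at 242.3, 238.9, 207.5 and 190.2 CPM in EN8, with EN13 the nearest excitatory subtype at P4, P8 and P21 (221.4, 140.7 and 165.2 CPM). Vascular leptomeningeal cells had more Ror2 than EN8, with a median over stages of 493 CPM. Fam163a was at 98.4, 114.4, 112.2 and 95.5 CPM in EN8, 5.50-fold to 12.4-fold the level of the others, and 1 nucleus held 32.7% of its EN8 UMIs at E19.

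**Figure D2:**
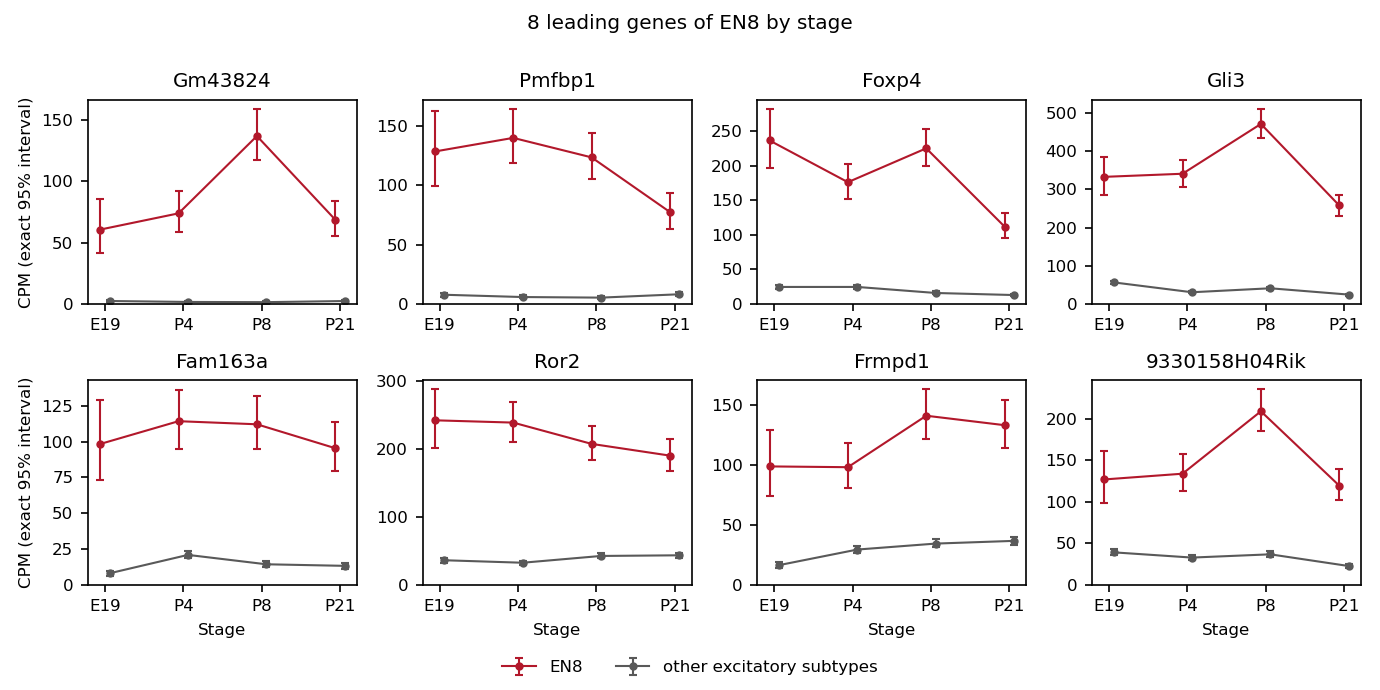
The panels of leading genes give CPM with exact 95% intervals (y axis, from 0) against stage (x axis) for EN8 in red and the other excitatory subtypes together in grey. In all 8 genes the red points lie above the grey ones at every stage, as for Gm43824, at 60.6 to 136.8 CPM in EN8 and 1.43 to 2.36 CPM in the others.

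A group of 8 leading genes (Gm43824, Pmfbp1, Foxp4, Gli3, Fam163a, Ror2, Frmpd1 and the noncoding 9330158H04Rik) occurred together in single nuclei. At least 4 of the 8 had a UMI in 204 of the 230 EN8 nuclei (88.7%), all 8 in 13 nuclei, and no EN8 nucleus lacked them all. The share with 4 or more was 73.5% at E19, where nuclei are shallowest, and 89.7, 95.5 and 93.5% at P4, P8 and P21. After thinning, 2 or more of the 8 were found in 67.3, 76.5, 80.6 and 67.4% of EN8 nuclei from E19 to P21. The same share was 4.40 to 6.00% in the other excitatory nuclei and 5.04 to 8.92% in inhibitory nuclei. It is not given for non-neuronal nuclei, where some of the 8, such as Gli3, were high. The 8 genes were picked from these same counts as higher in EN8 than in the other excitatory subtypes. A gap between those groups is therefore built into the choice, and the shares describe EN8 without testing it. The 12 EN8 nuclei outside the main cluster had 7 Gm43824 UMIs (47.4 CPM, exact interval 19.1 to 97.7) against 91.3 CPM (82.3 to 101.0) in the 218 inside it. Their Gli3 level was lower, at 67.7 CPM (32.5 to 125) against 364 CPM (346 to 383).

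**Figure D3:**
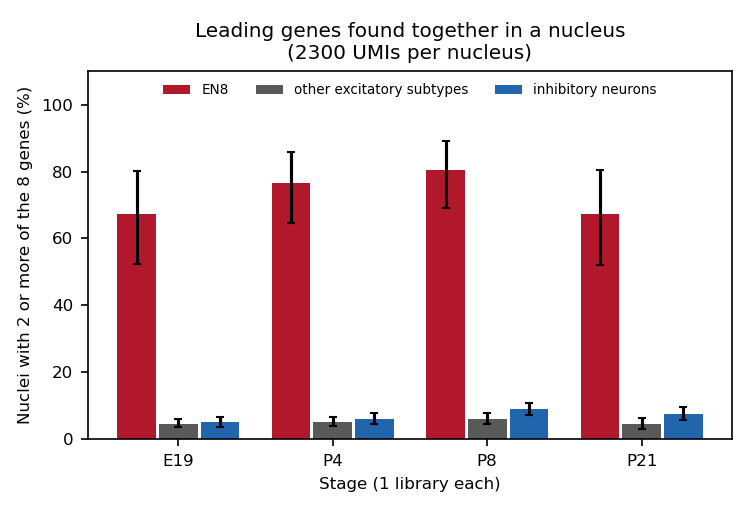
Bars give the percent of nuclei with a UMI of 2 or more of the 8 leading genes (y axis) at each stage (x axis) after every nucleus was thinned to 2300 UMIs, with exact 95% intervals, for EN8 in red, the other excitatory subtypes in grey and inhibitory neurons in blue. EN8 bars stand at 67.3 to 80.6%, and all other bars at 4.40 to 8.92%. The 8 genes were picked as higher in EN8 in these same counts. Non-neuronal nuclei are not shown.

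Among the receptors and receptor partners, Chrm2, the M2 muscarinic acetylcholine receptor (chr6:36388084-36528414, plus strand), was at 429.7, 446.4, 526.5 and 792.9 CPM in EN8 from E19 to P21 and at 167.6, 149.4, 178.5 and 223.4 CPM in the others. EN8 was 2.56-fold to 3.55-fold higher and the highest excitatory subtype at every stage. The noncoding RNA 9330158H04Rik (chr6:36209620-36390191, minus strand) starts inside Chrm2 and runs the other way, with 2108 bases in common. It too was higher in EN8, at 126.8, 133.8, 209.1 and 119.3 CPM against 38.9, 32.6, 36.5 and 22.4 CPM. The pair did not follow the same course, since Chrm2 was highest at P21 and 9330158H04Rik at P8. Outside the excitatory class the inhibitory subtype IN10 had more of both. Its medians over stages were 900 CPM of Chrm2 (EN8 486) and 284 CPM of 9330158H04Rik (EN8 130). Inhibitory neurons held 55.7% of all 9330158H04Rik UMIs, and EN8 held 12.3%. Gsg1l, an auxiliary subunit of AMPA-type glutamate receptors, was at 170.4, 215.8, 231.3 and 172.3 CPM against 30.1, 45.3, 49.0 and 57.4 CPM. Its excess over the others was 5.66-fold at E19 and 3.00-fold at P21.

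A second divergent pair was formed by Cdh8, a type II classical cadherin (chr8:99024471-99416471, minus strand), and the noncoding RNA A330008L17Rik (chr8:99416642-99733438, plus strand), whose starts lie 170 bases apart. Cdh8 was at 1991.3, 1864.2, 1952.2 and 1265.8 CPM in EN8 and at 545.7, 749.9, 593.5 and 553.7 CPM in the others. A330008L17Rik was at 140.1, 174.3, 293.6 and 487.1 CPM against 33.8, 43.4, 50.2 and 199.5 CPM, so it was highest at P21, where Cdh8 was lowest. At P21 EN6 was at or above EN8 for both genes, with 1277.7 CPM of Cdh8 and 675.7 CPM of A330008L17Rik. Since 23 of the 30 genes named as most different overlap another annotated gene, and the use of strand in counting is not given in the sources used here, reads in shared stretches may belong to either gene.

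The 250 bases before the start of Chrm2 and of Cdh8 are shown because each window lies in, or between, a pair of genes that were both higher in EN8. They are RefSeq sequences of GRCm38.p6, at chr6:36387834-36388083 on the plus strand and chr8:99416472-99416721 on the minus strand. In the Chrm2 window, all of which lies within 9330158H04Rik, capitals mark a match to a homeodomain motif. In the Cdh8 window, capitals mark the 80 bases that are also part of A330008L17Rik, and the 170 in lower case separate the starts of the genes.
Chrm2: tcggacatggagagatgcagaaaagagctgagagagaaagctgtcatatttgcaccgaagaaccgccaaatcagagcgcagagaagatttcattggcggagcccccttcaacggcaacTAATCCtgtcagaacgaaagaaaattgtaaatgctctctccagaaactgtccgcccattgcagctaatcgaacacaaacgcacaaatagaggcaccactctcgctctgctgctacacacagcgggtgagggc
Cdh8: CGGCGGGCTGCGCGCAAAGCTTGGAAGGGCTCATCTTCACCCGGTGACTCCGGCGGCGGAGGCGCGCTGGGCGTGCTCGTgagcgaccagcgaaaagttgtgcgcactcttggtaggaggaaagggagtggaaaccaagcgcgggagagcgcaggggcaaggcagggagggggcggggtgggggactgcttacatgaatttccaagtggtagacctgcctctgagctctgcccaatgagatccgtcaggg

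A set of 3 short motifs was searched on both strands in the 250-base windows of the 13 leading genes that have a RefSeq entry. TAATCC, a core bound by homeodomain proteins of the bicoid type, was found for 1 of the 13, Chrm2, where it ends 126 bases before the gene's start. The same letters occur for 7.21% of the 27025 genes with a window. TGTTTAC, a forkhead core, and GACCACCCA, a Gli core, were found for 0 of the 13 and for 3.54 and 0.255% of all genes. None of these letters overlaps another of the motifs in the Chrm2 window. A match or its absence is a description of these windows.

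The remaining leading genes were 2.27-fold to 7.62-fold higher. Frmpd1, a FERM and PDZ domain protein, was at 98.4, 97.8, 140.7 and 132.8 CPM in EN8, from E19 to P21. Vwc2, a secreted antagonist of bone morphogenetic proteins, was at 371.0, 452.0, 460.4 and 515.4 CPM, with EN13 next at 215.2 to 415.9 CPM. Abtb2 stood out at P8, at 73.0 CPM and 7.62-fold the level of the others, against 2.80-fold to 3.66-fold at the other stages. Syt17, a member of the synaptotagmin family, was at 54.9, 106.1, 101.5 and 70.1 CPM. Man1a, a mannosidase of the Golgi that trims glycans, was at 442.9, 518.4, 560.3 and 392.3 CPM, with EN4 at 405.9 to 484.3 CPM and above EN8 at P21. Onecut2, a cut-homeodomain transcription factor, was at 117.4, 72.9, 63.0 and 87.3 CPM, and EN1 exceeded it at P8, with 75.5 CPM. The noncoding AC159282.1 (60.4 to 92.2 CPM) and Pcsk6, a proprotein convertase (36.0 to 69.2 CPM), complete the list. Most of these genes had higher medians over stages in cells outside the excitatory class. Abtb2 had 1192 CPM in committed oligodendrocytes (EN8 58.9), Frmpd1 235 CPM in protoplasmic astrocytes (EN8 116) and Vwc2 595 CPM in IN7 (EN8 456). Myelinating oligodendrocytes, in 1 stage, had 787 CPM of Man1a (EN8 481), 103 CPM of Pcsk6 (EN8 51.7) and 140 CPM of Onecut2 (EN8 80.1). Syt17 and AC159282.1 had their highest median in EN8.

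Of the 10 genes most reduced in EN8, Sox6, an SRY-box transcription factor, differed most. EN8 held 6 Sox6 UMIs at E19, then 11, 12 and 27, which is 11.4, 10.1, 9.22 and 20.1 CPM. The other excitatory subtypes had 290.4, 236.8, 554.7 and 282.2 CPM and were 25.6-fold, 23.3-fold, 60.1-fold and 14.01-fold higher. EN8 was not alone at this end: the medians over stages were 9.88 CPM in EN7, 14.3 CPM in EN13 and 26.6 CPM in EN6, while EN9 had 2123 CPM. The long noncoding RNA B230323A14Rik, antisense to the forkhead gene Foxb1, had 1, 1, 3 and 0 UMIs in EN8 and 74.2, 48.7, 107.7 and 87.9 CPM in the others. At P21 the others were at least 39.3-fold higher, counting 3 UMIs in the library's EN8 sum as the floor. Its level in the others came mostly from EN3, at 419.8 to 558.2 CPM.

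Foxp2, a forkhead transcription factor of the same family as Foxp4, went the opposite way to it. EN8 had 119.2, 35.1, 25.4 and 14.9 CPM of Foxp2, against 522.6, 397.7, 155.6 and 174.3 CPM in the others, which were 4.38-fold, 11.3-fold, 6.13-fold and 11.7-fold higher. Reln, the secreted glycoprotein reelin, was at 43.5, 46.1, 26.1 and 23.1 CPM against 270.0, 202.6, 264.1 and 209.9 CPM. Mdga1, a membrane protein that binds neuroligins, was at 4.48 to 28.4 CPM against 35.4 to 144.2 CPM, and Il1rapl2, a synaptic organiser, at 26.9 to 109.1 CPM against 341.4 to 464.3 CPM. Some other subtypes had lower medians over stages than EN8. These were 17.8 CPM of Foxp2 in EN12 (EN8 30.2), 11.2 CPM of Reln in EN6 (EN8 34.8) and 3.95 CPM of Mdga1 in EN6 (EN8 11.1). Il1rapl2 was at 44.2 CPM in EN13 (EN8 79.9). EN8 was the lowest excitatory subtype at each stage for 2 of the 10. These are the noncoding RNAs Gm3764, which hosts the miRNA gene Mir9-1, and Gm26883, which lies opposite Tshz2. Gm32647 was at 23.1 to 46.1 CPM against 150.1 to 334.2 CPM.

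**Figure D4:**
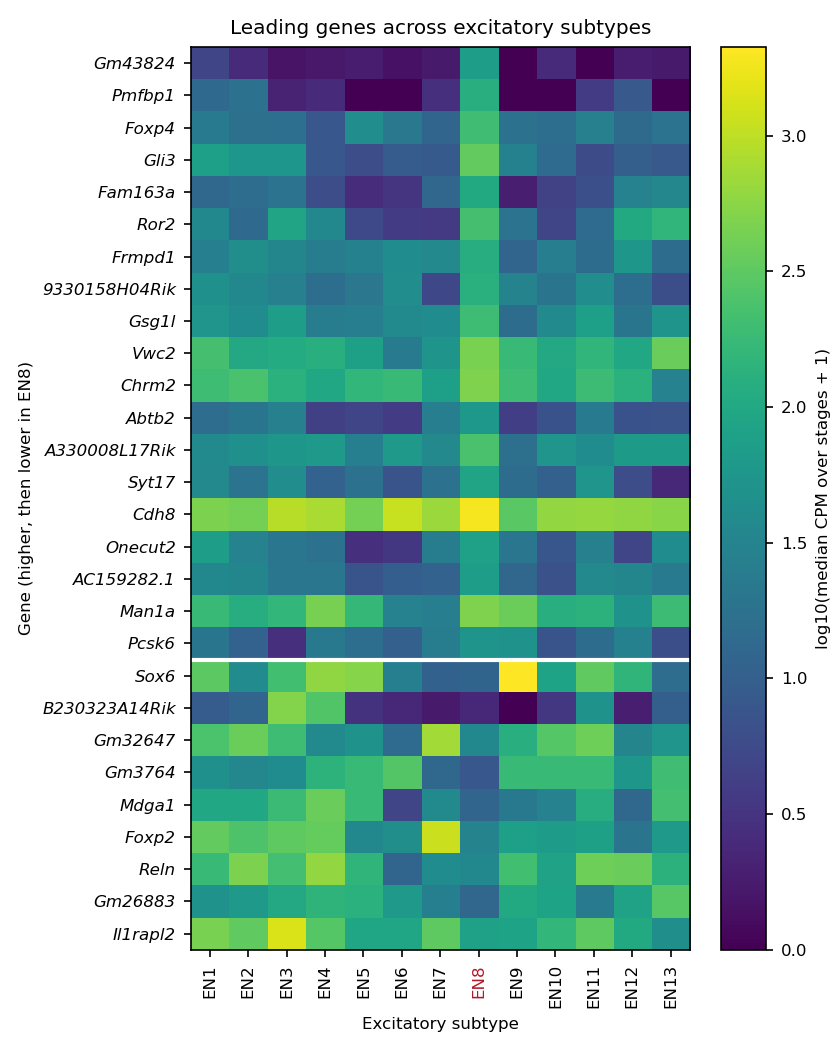
The heat map gives the log10 of the median CPM over stages plus 1 (colour) for 19 genes higher and 9 genes lower in EN8 (rows, split by a white line) in the 13 excitatory subtypes (columns). Gm43824 and Pmfbp1 are brightest in the EN8 column, at the middle of the colour scale. Pmfbp1 is fainter in EN2 and EN1 (medians of 16.2 and 12.7 CPM). Cdh8 is bright in every column and brightest in EN8, and Sox6 is dark in EN8, EN7 and EN13 and brightest in EN9.

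Gene lists were read with a lower minimum, a mean of 20 CPM on the higher side. Over all 7129 such genes 33 (0.463%) were higher and 69 (0.968%) lower by 2-fold in every stage, and the median of the mean log2 ratio was -0.0019. Of 72 transcription factors tested in a list of 140, 6 were higher and 13 lower, with a median of -0.31. The 6 included Gli3, Onecut2, Onecut3, Uncx and Trps1. Onecut3 was at 54.9, 46.1, 33.8 and 22.4 CPM in EN8 against 12.7, 9.92, 3.03 and 2.71 CPM, and Uncx, a paired-type homeobox gene, at 18.9, 21.2, 27.7 and 17.2 CPM against 6.18, 2.39, 0.841 and 0.905 CPM. The 13 lower included Sox6, Foxp2, Tfap2b, Prox1, Nr2f1, Nr2f2, Maf, Rorb, Tshz2, Zfhx4, Zfpm2 and Bcl11a. Tfap2b, an AP-2 factor, was at 47.3, 13.8, 13.1 and 2.24 CPM against 195.2, 115.8, 188.8 and 61.96 CPM. Nr2f1, a nuclear receptor, was lowest in EN8 of all ranked excitatory subtypes at each stage, at 6.15 to 20.8 CPM.

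Guidance and adhesion genes were mixed, and their counts stand beside 0.463% higher and 0.968% lower over all 7129 genes. Of 59 axon guidance genes tested none was higher by 2-fold in every stage and 3 were lower (Sema3e, Sema5a and Robo2), with a median log2 ratio of -0.012. Robo2, a receptor for Slit proteins, was at 439.1, 301.6, 363.5 and 232.0 CPM in EN8, the lowest excitatory subtype at each stage, against 1081 to 1573 CPM in the others. Plxna4, a semaphorin co-receptor, was highest in EN8 at each stage, at 795.9 to 999.4 CPM against 360.3 to 495.2 CPM, and stayed under 2-fold at P4 (log2 ratio 0.76). Ntn1, which encodes the secreted guidance cue netrin-1, was at 35.96, 40.6, 52.3 and 15.7 CPM against 15.5, 5.43, 4.63 and 2.04 CPM, just short of 2-fold at E19. Of 63 synapse organisers 8 were lower and none higher, with a median of -0.16, and the 8 included Mdga1, Il1rapl2, Nxph1, Nptx2 and the contactins Cntn3 and Cntn4. Of 25 cadherins and protocadherins 1, Cdh8, was higher and 3 (Cdh4, Cdh7 and Cdh22) were lower. In the matrix and secreted list (38 tested) Vwc2, Vcan and Igf1 were higher and Kitl, Erbb4 and Hs6st3 lower. Igf1, insulin-like growth factor 1, was at 43.5, 91.3, 63.0 and 55.2 CPM in EN8, the highest excitatory subtype at each stage.

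Receptors for transmitters and potassium channels gave few calls. Over all 7129 genes 0.463% were higher and 0.968% lower, so the lack of a call in lists this short does not set them apart. Of 14 ionotropic glutamate receptor genes and 20 GABA and glycine receptor genes tested, none passed 2-fold in every stage in either direction. The largest mean excess in these lists was that of Grik1, a kainate receptor subunit, at 1338, 1715, 1982 and 935.4 CPM against 691.1, 866.9, 647.5 and 443.0 CPM. Gabra4, a GABA-A receptor subunit, had the lowest level of all ranked excitatory subtypes in EN8 at each stage, at 17.04, 16.6, 10.8 and 8.95 CPM. Of 18 modulator receptors tested 1 was higher, Chrm2. Chrm3, the M3 muscarinic receptor, was at 1664, 1494, 1770 and 1416 CPM against 617.2, 659.5, 1014 and 888.6 CPM, under 2-fold at P8 and P21. Of 40 potassium channel genes none passed either way in every stage. Of 8 neuropeptide-list genes tested Nxph1 alone was lower, and Sst was at 20.8, 3.69, 6.15 and 0 CPM in EN8 against 164.3, 28.7, 12.7 and 5.28 CPM.

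EN8 resembled EN1 most closely. Across the genes with 50 CPM or more, log2(CPM + 5) in EN8 and EN1 had Pearson's r of 0.941, 0.947, 0.932 and 0.934 from E19 to P21, a description across genes that are not independent. The means over stages were 0.939 for EN1, 0.911 for EN3 and 0.902 for EN2, and EN6 was farthest, at 0.814. Subtypes differ in depth, and the profiles of smaller ones are noisier. Against EN1 the genes higher in EN8 at every stage were again led by genes such as Gm43824, Pmfbp1, Foxp4 and Fam163a. Gm43824 in EN1 was at 3.96, 2.19, 3.92 and 5.57 CPM, so EN8 was 15.3-fold, 33.7-fold, 34.9-fold and 12.3-fold higher. The genes lower in EN8 than in EN1 were led by genes such as Sox6 (277.8, 287.2, 660.3 and 334.3 CPM in EN1), Ptprk, Zfhx4 and Gm32647. Ptprk, a receptor-type tyrosine phosphatase, was at 73.8, 38.7, 49.96 and 47.7 CPM in EN8 and at 407.2, 369.8, 391.2 and 242.5 CPM in EN1.

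Against EN3 the excess of EN8 was led by genes such as Gm43824, Pmfbp1, Bnc2 and Foxp4. Bnc2, a zinc-finger protein, was at 543.2, 413.2, 405.0 and 350.6 CPM in EN8 and at 27.02, 14.4, 24.8 and 29.8 CPM in EN3, although 2 or 3 other excitatory subtypes exceeded EN8 at each stage. The deficit was led by B230323A14Rik, Il1rapl2, Tfap2b, Cntn4 and Rxfp2. Cntn4, a contactin, was at 323.7, 330.2, 275.2 and 425.9 CPM in EN8 and at 2186, 2627, 2468 and 2755 CPM in EN3. Sox6 thus led the genes lower than in EN1, and B230323A14Rik those lower than in EN3.

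Between stages, counts rest on genes with 100 CPM or more in the higher library. From E19 to P4, 11 of 2174 genes (0.506%) were higher by 2-fold or more in EN8 and 32 (1.47%) lower, beside 0.387 and 1.02% in the other excitatory subtypes. From P4 to P8 the counts were 2 (0.097%) and 7 (0.339%) of 2062, the fewest of the steps, beside 0.645 and 0.892% in the others. From P8 to P21 they were 64 (2.99%) and 84 (3.93%) of 2139, beside 2 and 2.76%. From E19 to P21, 158 of 2327 genes (6.79%) were higher and 224 (9.63%) lower. The other excitatory subtypes gave 145 (6.38%) and 224 (9.86%) of 2271 over the same span. Nuclei of the 4 libraries also differ in depth, as given above, and the mix of subtypes among the others differs between them.

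Genes of immature neurons were lower at P21 in EN8 as in the others. Of 19 genes tested in the immature neuron and cytoskeleton list 17 were lower by 2-fold or more at P21 than at E19 in EN8, with a median log2 ratio of -2.93. In the other excitatory subtypes all 20 tested were lower, with a median of -3.35. Over all genes at 20 CPM or more, 12.1% were lower in EN8 and 9.98% in the others, and the median in EN8 was -0.065. Tubb2b, a tubulin of growing neurons, was at 501.6, 220.5, 103.8 and 6.71 CPM in EN8 from E19 to P21, a 74.7-fold difference between the ends (exact interval 38.8 to 165). Nnat, an imprinted gene of immature neurons, was at 450.5, 267.5, 139.9 and 14.9 CPM, and Tmsb10, an actin-binding thymosin, at 293.4, 112.5, 65.3 and 9.70 CPM. Fabp7, a fatty acid binding protein of radial glia, was at 147.6, 81.2, 44.6 and 1.49 CPM in EN8 and at 220.0, 92.5, 55.6 and 2.19 CPM in the others.

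Of 22 genes tested in the mature neuron list, 11 were higher by 2-fold or more at P21 than at E19 in EN8 and 1 lower. The median log2 ratio was 0.92. In the other excitatory subtypes 14 of 22 were higher and 1 lower, with a median of 1.27. The list includes Specc1, Il1rap and Pcgf5. It and the immature neuron list were chosen with earlier results of these data known, so their directions are a description and not a test. Over all genes at 20 CPM or more, 7.26% were higher in EN8 and 5.41% in the others. Snap25, a protein of synaptic vesicle fusion, was at 185.5, 282.3, 332.0 and 626.6 CPM in EN8, and Specc1, another gene of the list, at 24.6, 42.4, 56.1 and 312.5 CPM. Kcna1, a potassium channel of axons that was picked with Kcna2 after their values were seen, was at 15.1, 10.1, 6.92 and 80.6 CPM, and Kcna2 at 20.8, 20.3, 30.7 and 76.8 CPM. In these genes P21 stood apart from the other 3 libraries.

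Some genes differed in course between EN8 and the sum of the other excitatory subtypes. The mix of subtypes in that sum also differs between libraries, with EN1 at 38.4% of excitatory nuclei at E19 and 15.1% at P8. Its course therefore reflects both the mix and the levels within subtypes, which were not separated. Htr2c, the serotonin 2C receptor, was at 73.8, 248.1, 471.1 and 1074 CPM in EN8, from E19 to P21, and at 72.2, 147.6, 93.4 and 287.8 CPM in the others. EN8 was level with the others at E19 (log2 ratio 0.03) and the highest excitatory subtype at P4, P8 and P21. Its level at P21 was 14.6-fold that at E19 in EN8 (exact interval 10.6 to 20.5) and 3.99-fold in the others. At P21 every one of the 46 EN8 nuclei had an Htr2c UMI, against 42.9% at E19, where nuclei are shallower. After thinning the shares were 20.4, 42.6, 43.3 and 89.1% from E19 to P21, beside 8.38, 17.4, 11.6 and 28.8% of the other excitatory nuclei and 3.00 to 7.17% of astrocytes. Pde7b, a cAMP phosphodiesterase, was at 9.46, 46.1, 68.4 and 286.4 CPM in EN8 and at 68.4, 84.2, 73.4 and 223.1 CPM in the others. Nr3c2, the mineralocorticoid receptor, was at 15.1, 49.8, 70.7 and 381.9 CPM against 104.1, 107.2, 172.7 and 390.5 CPM. Both genes thus began low in EN8 and reached the level of the others at P21. Tox2, an HMG-box factor, did the same, at 17.04, 49.8, 63.0 and 115.6 CPM against 81.7, 82.5, 106.6 and 117.1 CPM.

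Other genes were lower in EN8 at P21 than at E19 while the other subtypes were higher or less far below. Ankfn1 was at 117.4, 86.7, 111.4 and 29.8 CPM in EN8 and at 128.1, 159.9, 291.8 and 296.2 CPM in the others. Kcnab1, a potassium channel beta subunit, was at 130.6, 54.4, 32.3 and 55.2 CPM against 108.9, 158.3, 206.3 and 260.6 CPM. Gabra5, a GABA-A receptor subunit, was at 153.3, 92.2, 73.0 and 26.9 CPM against 104.8, 116.7, 194.7 and 109.8 CPM. Slit2, a secreted repellent of axons, was at 240.4, 71.95, 87.6 and 44.8 CPM against 333.4, 292.3, 323.2 and 256.2 CPM, so that most of its difference lay between E19 and P4. Kcnip4, a partner of A-type potassium channels, was at 2184, 1136, 1224 and 1556 CPM in EN8 and at 2873, 3968, 6950 and 8866 CPM in the others. The difference in course between EN8 and the other subtypes was not tested for these genes, as there is 1 library per stage. The changing mix of subtypes among the others applies to these genes too.

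**Figure D5:**
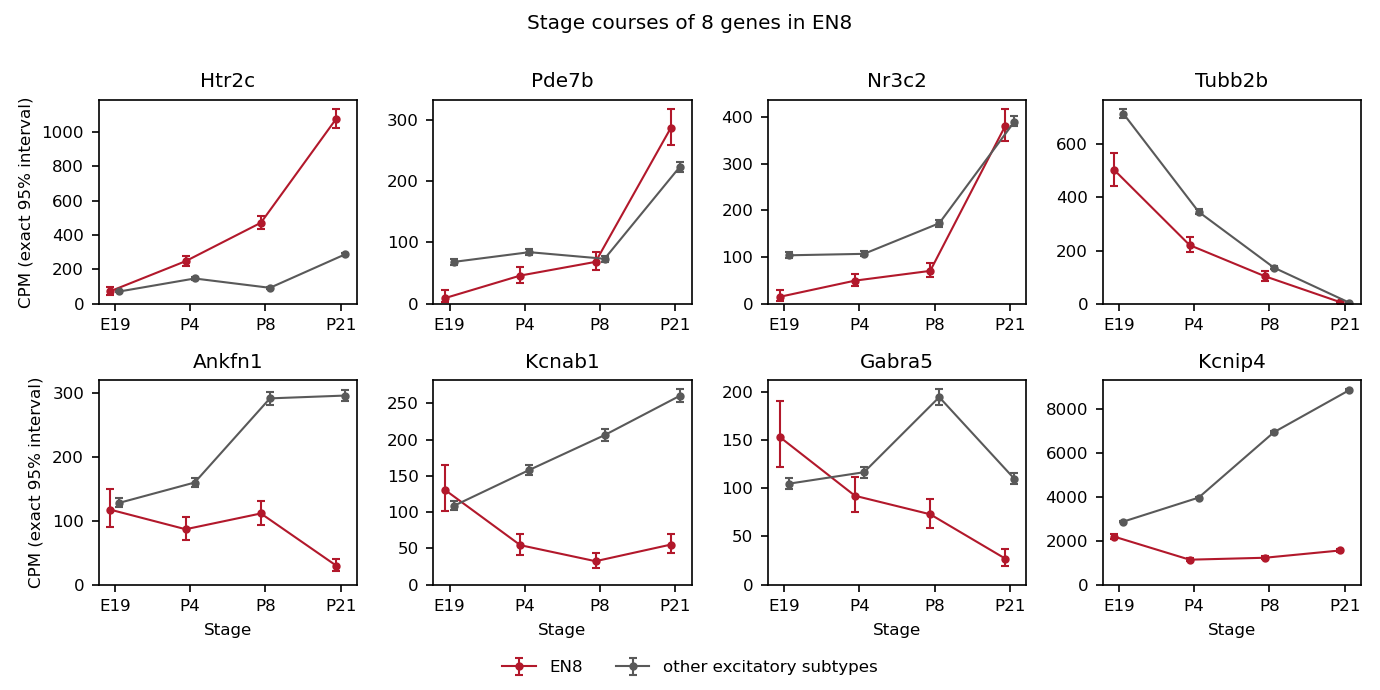
The panels of stage courses give CPM with exact 95% intervals (y axis, from 0) against stage (x axis) for EN8 in red and the other excitatory subtypes in grey. Htr2c reached 1074 CPM in EN8 and 287.8 CPM in the others at P21, Pde7b and Nr3c2 met or passed the grey line at P21, Tubb2b was low in both at P21, and Ankfn1, Kcnab1, Gabra5 and Kcnip4 were below the grey line from P4 to P21.

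Among the lists, 20 of 61 axon guidance genes tested were lower by 2-fold or more in EN8 at P21 than at E19 and none was higher, with a median log2 ratio of -0.62, beside 17 of 64 and -0.48 in the others. Of 66 transcription factors 4 were higher and 15 lower in EN8, beside 5 and 26 of 73 in the others. Of 40 potassium channel genes 7 were higher and 8 lower in EN8, beside 10 and 3 of 40 in the others. Of 19 GABA and glycine receptor genes 4 were lower and none higher in EN8, with 1 each way of 20 in the others. The direction of these lists was not tested, and the share over all genes at this minimum was 12.1% lower and 7.26% higher.

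Steps between neighbouring libraries added a few names. From E19 to P4 the largest differences upward in EN8 were those of AC149090.1, annotated as protein coding on an unplaced scaffold (66.3 to 468.6 CPM), Htr2c and Thrb, a thyroid hormone receptor (37.9 to 106.1 CPM). Downward they were those of Tac1, the substance P precursor (102.2 to 21.2 CPM), Adarb2 (289.6 to 86.7 CPM) and Slit2. From P4 to P8 the noncoding Gm28928 went from 202.9 to 581.8 CPM and Ror1, a relative of Ror2, from 48.9 to 106.1 CPM, while Lama3, a laminin chain, went from 118.1 to 49.2 CPM. Ror1 was back at 44.0 CPM at P21. From P8 to P21 Fbxl7 went from 123.7 to 6.71 CPM in EN8 and from 150.3 to 48.9 CPM in the others. Nfia, a nuclear factor I gene, was at 11.5 CPM at P8 and 114.1 CPM at P21 in EN8, but 1 nucleus held 39.9% of its P21 UMIs.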

How the data were processed

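Nuclei were isolated on a sucrose cushion and captured with a target of 2000 per library, per the labels' protocols. The authors deposited a matrix of UMI counts (31053 genes by 9724 nuclei) with a table of per-nucleus labels, which also gives mitochondrial and ribosomal percent values as deposited by the authors. Cell Ranger 3.0.2 and the mm10 build are named in the submitters' processing notes. Whether doublets were removed is not given in the sources used here, and no doublet caller was run. Subtype and stage came from the deposited labels. Counts were summed per subtype and library, scaled to CPM and compared as log2 ratios with 5 CPM added (Python 3.11.15, numpy 2.4.6, scipy 1.17.1, pandas 2.3.3). Genes needed a mean of 50 CPM (20 CPM for lists, 100 CPM between stages), and a stage needed 20 nuclei of a subtype. Library depth was 19277512 to 31325079 UMIs. Intervals are exact Poisson, Clopper-Pearson or conditional binomial at 95%. The ratio calculation was checked on simulated counts.

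EN8 and the gene lists were chosen with earlier results of these data known. Named genes are the 20 highest and 10 lowest ratios kept in every stage, the largest stage differences, the 5 most different from each near subtype each way, and the extremes of each list. Mitochondrial, ribosomal, haemoglobin and sex-linked marker genes were left out of these ranks. Positions are from GENCODE M21. A further 4 per-nucleus columns were not used. Alternatives covered pseudocount, minimum level, scaling, weighting, thinning and left-out nuclei. Some genes that these rules select are not reported here, and the 8 genes counted together in single nuclei were taken from the reported ones.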

Additional observations from a re-analysis of the deposited data

Results flagged for a closer look

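Ankfn1 and Kcnab1 differed in opposite directions in EN8 and in the other excitatory subtypes between E19 and P21, and the difference was not tested. The mix of subtypes among the others also differs between these libraries. The log2 ratio of P21 to E19, with 5 CPM added, was -1.81 for Ankfn1 in EN8 and 1.18 in the others. For Kcnab1 it was -1.17 in EN8 and 1.22 in the others. In EN8, 1 nucleus held 52.5% of the Ankfn1 UMIs at P21 and 29.0% at E19. For Kcnab1, 1 nucleus held 43.5% of the UMIs at E19 and 23.0% at P21. Without the nucleus holding most UMIs at each stage the ratios in EN8 were -2.27 for Ankfn1 and -0.74 for Kcnab1, and in thinned nuclei they were -2.22 and -0.53.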

How the results depend on the processing

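No paired analysis was possible because each stage is 1 library and no test was made. The sign of no result reversed under the alternatives run. As a share of all neurons EN8 was 2.20, 3.50, 3.43 and 3.23% from E19 to P21. With double the minimum level, 17 genes in place of 26 were higher in EN8 in every stage, since fewer genes were tested. Counts of genes 2-fold apart either way between stages (43, 9, 148 and 382 for E19 to P4, P4 to P8, P8 to P21 and E19 to P21) moved with the minimum level. They were 753, 242, 1031 and 2352 with none, 91, 16, 304 and 776 with 0.5 times it, and 18, 3, 67 and 172 with double. Thinning to 2300 UMIs gave 252, 132, 379 and 700, and 20 CPM added gave 27 and 3 for the first steps. Of the 20 genes higher in EN8, 15 passed 2-fold in every stage with 20 CPM added, 17 in thinned nuclei, 18 without nuclei carrying an inhibitory transmitter UMI, and 18 without the nucleus holding most UMIs of each gene. All 20 did under each of the 8 other settings, and all 10 lower genes under every setting. Settings that changed only the minimum level leave the ratio of a given gene as it is, so they could not alter these counts. EN1 was nearest to EN8 under each of the 3 other measures. The second nearest was EN9 in place of EN3 when only the transcription factor list was used. The depth of EN8 at E19, 528302 UMIs, limits low genes most.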
